A study of Rattus norvegicus with 8 samples.

Results

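The genes described here encode integrins of the hemidesmosome and of other epithelial contacts with the basement membrane, chains of laminin-332 and laminin-511, and the tetraspanin that binds the laminin-binding integrins. The set holds 9 genes: Itgb4, Itga6, Itga3, Itgb1, Itgb6, Lama3, Lamb3, Lama5 and Cd151. A probe belonged to a gene when its RefSeq accession mapped to that symbol, which gave 8 probes of 7 genes among 21358 genes or unnamed transcripts tested. No probe was matched by accession to Itga3 or Lama3, so these 2 genes have no value here. The genes were chosen by the signal difference between APL and Control samples, because Itgb4 is among the largest increases, and their differences between groups are given as a description. Calls of members in the fit across all genes are only counted beside the background, and nothing is read from them.

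Kidney RNA was measured on single-colour arrays from male rats of the SD strain, an outbred laboratory strain, aged 10 weeks. The Control group was given 0.5% methylcellulose, a vehicle, and the APL group 150 mg/kg of a compound labelled APL, each for 4 weeks, with 4 samples in each group. The series title calls these rats a fibrosis model produced by allopurinol, a drug that blocks xanthine oxidase, so APL is read as allopurinol, and the comparison asks how gene expression differs in such kidneys. The labels do not say that the 4 samples of a group came from separate animals, so p-values measure the spread between these samples, which may be technical.

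An integrin is a pair of an alpha and a beta subunit that spans the cell membrane and ties matrix outside to the cytoskeleton inside. Integrin β4 pairs only with integrin α6, and this pair binds laminin in hemidesmosomes, where plectin links it to keratin filaments. Integrin β1 pairs with many alpha subunits, among them α3 and α6, and forms the laminin receptors of most kidney tubule cells. Laminins are trimers of an alpha, a beta and a gamma chain. Lama3 and Lamb3 encode chains of laminin-332. Laminin-511, a main laminin of mature tubular basement membranes, is made of the products of Lama5, Lamb1 and Lamc1.

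Values are relative signals: the processed spot intensity divided by the 75th percentile of its array, so that 1 is the level of that percentile. That percentile ran from 272 to 307 intensity units on the Control arrays and from 378 to 497 on the APL arrays, and 74.0% to 77.3% and 79.9% to 81.9% of probes were well above background. The share of called genes that were higher with APL was 50.8% with this scaling and 83.7% without scaling between arrays, where the median log2 fold change of all genes was 0.61 in place of -0.03. Podocyte markers were well above background on every array, so the samples were not tubule alone, and kidney markers of every tubule segment listed were detected. Relative signals compare samples for 1 probe and do not rank genes against each other. In whole-tissue RNA, a change in the number of cells of a type and a change in RNA per cell cannot be told apart.

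Promoter sequence is shown for 2 members, Itgb1, whose APL samples were all above the Control samples on the probe used and overlapped them on its other probe, and Cd151, whose groups overlapped. The difference between the 2 genes was not tested. Each is the 250 bases before the gene start in RefSeq's rat assembly GRCr8, on the strand of the gene, and capitals mark the GC box GGGCGG on either strand, the element bound by Sp family factors.
Itgb1, chr19:73602027-73602276, plus strand: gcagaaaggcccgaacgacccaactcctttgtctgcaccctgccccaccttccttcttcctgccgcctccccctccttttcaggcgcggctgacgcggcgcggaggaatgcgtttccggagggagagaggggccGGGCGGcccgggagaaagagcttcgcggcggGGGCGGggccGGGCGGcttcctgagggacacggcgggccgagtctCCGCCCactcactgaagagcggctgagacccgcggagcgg
Cd151, chr1:205994050-205994299, plus strand: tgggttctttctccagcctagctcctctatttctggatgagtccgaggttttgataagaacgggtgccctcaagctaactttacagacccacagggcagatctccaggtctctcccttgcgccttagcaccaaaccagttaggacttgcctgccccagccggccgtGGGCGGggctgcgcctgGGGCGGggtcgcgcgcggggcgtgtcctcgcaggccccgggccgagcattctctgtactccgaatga

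The Itgb1 window holds 4 GC boxes and the Cd151 window 2, and 30.5% of the 33469 rat promoter windows of this length hold at least 1. The windows of Lama5 and Itga3 hold 4 and 2, and those of Itgb6, Lamb3 and Lama3 were without this run of letters. The AP-1 element TGAGTCA, searched on both strands, was found in 4.05% of all windows and stood 3 times in that of Lama3, whose mRNA has no value here. It was in no other member's window among those of Itga3, Itgb1, Itgb6, Lamb3, Lama5 and Cd151. Itgb4 and Itga6 had no window in the promoter set used, so neither was searched. Both printed windows carry GC boxes, and a match is a description of letters, not a site.

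Itgb4, the β4 subunit of the hemidesmosome, had by far the widest difference of the set. Its relative signal was 0.166, 0.0331, 0.0420 and 0.0321 in Control replicates 1 to 4 and 5.70, 8.16, 17.0 and 6.34 in APL replicates 1 to 4. All 4 APL values lay above all 4 Control values, and Control replicate 1 stood above the other Control samples. The log2 fold change was 7.33 ± 0.60 (moderated SE, n = 4 each), a 161-fold difference, and it was rank 15 among the increases of the 12679 tested genes with a symbol. It was 6.52 on slide 1 and 8.14 on slide 2, each of which carried 2 Control and 2 APL arrays. The probe, a single spot per array, was well above background in all 8 samples. With 1 array left out the value ran from 7.0 to 7.89, the highest without Control replicate 1. It was 4.78 and 4.67 when the background was corrected with normexp, scaled by the percentile and by quantiles.

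Itga6 encodes the α6 subunit, the partner that β4 needs to reach the cell surface, and its log2 fold change was close to 0. The relative signal was 3.03, 2.77, 1.52 and 3.26 in the Control samples and 2.92, 1.88, 2.62 and 2.44 in the APL samples. The groups overlapped, with Control replicate 3 the lowest of the 8 samples. The log2 fold change was -0.06 ± 0.29 (n = 4 each), with -0.31 on slide 1 and 0.19 on slide 2. Its sign depended on the scaling, at 0.58 without scaling between arrays and 0.01 with quantile normalization. Across the 8 arrays the log2 values of Itga6 and Itgb4 correlated at -0.06, as a description over samples that share their arrays.

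**Figure D1:**
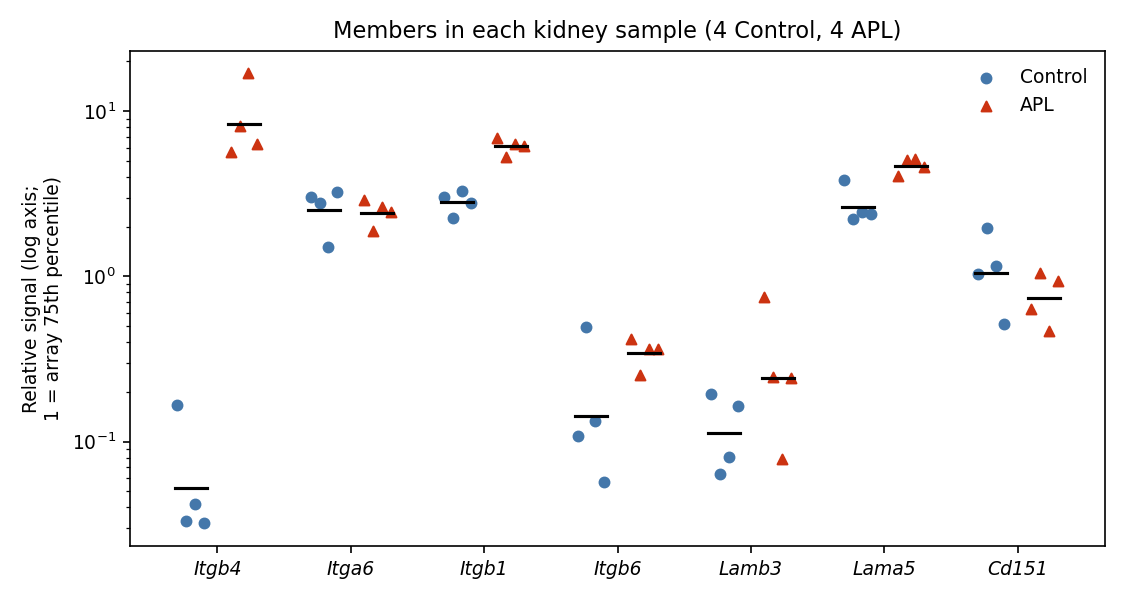
Relative signal of the 7 measured members (log axis, 1 is the 75th percentile of the array) in the 4 Control samples (circles) and 4 APL samples (triangles), with the mean of the log2 values of each group as a bar. Itgb4 lies between 0.0321 and 0.166 in Control and between 5.70 and 17.0 with APL, while the groups overlap for Itga6, Itgb6, Lamb3 and Cd151.

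Itgb1 encodes the β1 subunit, shared by most laminin and collagen receptors. Relative signals were 3.03, 2.27, 3.28 and 2.77 in the Control samples and 6.85, 5.29, 6.33 and 6.17 in the APL samples. The groups were apart and each was narrow. On the log2 scale the fold change was 1.13 ± 0.20 (n = 4 each), or 2.18-fold, and was 1.20 and 1.05 on the slides. The probe with 10 spots per array gave a similar log2 fold change of 0.99, although its values of 0.937, 1.55, 1.14 and 0.358 in Control and 1.64, 1.53, 2.10 and 1.72 with APL overlapped. The value of the first probe was 1.76 without scaling between arrays.

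Itgb6 encodes the β6 subunit, which pairs with αv in epithelia and releases active TGF-beta from its latent complex. In Control samples its relative signal was 0.108, 0.496, 0.132 and 0.0571, and in APL samples 0.420, 0.252, 0.362 and 0.364. Control replicate 2 was the highest of the 8 samples, and the other 3 Control samples were below every APL sample. The log2 fold change was 1.28 ± 0.60 (n = 4 each), and 0.49 and 2.06 on the slides. It was 1.88 without Control replicate 2 and 0.84 without Control replicate 4, and 0.40 with normexp and quantile normalization. The SD of the log2 values was 1.31 in Control and 0.31 with APL.

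Lamb3, the β3 chain found only in laminin-332, varied most among the APL samples. Control samples had relative signals of 0.194, 0.0634, 0.0805 and 0.165, and APL samples 0.748, 0.247, 0.0784 and 0.241. Of the APL samples, 3 lay above every Control sample and replicate 3 lay within the Control range. On the log2 scale the fold change was 1.10 ± 0.69 (n = 4 each), and 1.95 on slide 1 against 0.25 on slide 2. It was 0.56 without APL replicate 1 and 0.43 with normexp and quantile normalization. APL replicate 3, which was low for Lamb3, was the highest of all samples for Itgb4.

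Lama5 encodes the α5 chain of laminin-511. Relative signals were 3.82, 2.22, 2.44 and 2.38 in Control and 4.04, 5.04, 5.10 and 4.62 with APL. The groups were apart, with Control replicate 1 close below the lowest APL sample. The log2 fold change was 0.82 ± 0.23 (n = 4 each), or 1.77-fold, and 0.63 and 1.01 on the slides. It was 1.46 without scaling between arrays and 0.53 with normexp and the 75th percentile.

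Cd151, the tetraspanin that binds α3 and α6 integrins and stabilises hemidesmosomes, had values that overlapped. The Control samples were at 1.03, 1.95, 1.16 and 0.514 and the APL samples at 0.638, 1.05, 0.467 and 0.943, with Control replicate 2 the highest and APL replicate 3 the lowest. On the log2 scale the fold change was -0.51 ± 0.44 (n = 4 each), -0.79 and -0.22 on the slides, and it turned to 0.13 without scaling between arrays. It was -0.21 without Control replicate 2.

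In the fit of limma across all genes, with an adjusted p under 0.05 as the threshold, 3 of the 7 measured members were called, Itgb4, Itgb1 and Lama5, each of them higher with APL, against 23.5% of all genes called in either direction and 11.9% called higher. The groups did not overlap for the same 3 members, and for 29.8% of all genes, 13.9% with APL above and 15.9% with APL below. The median log2 fold change of the 7 members was 1.10 beside -0.03 over all genes. Because this comparison chose the set, nothing is read from these counts. The count also rests on Lama5, which was past the threshold without Control replicate 1 but not without any other array.

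After the mean of each group was removed, the log2 values of Itgb4 and Lama5 had a correlation of 0.93 over the 8 arrays, given as a description. The same measure was 0.69 for Itgb6 and Cd151, 0.26 for Itgb4 and Itgb1, 0.13 for Itgb4 and Itga6, and -0.15 for Itgb4 and Lamb3. Control replicate 1 was the highest Control sample for both Itgb4 and Lama5. Its log2 value of Itgb4 was -2.59, against -4.96 to -4.57 in the other Control samples. How far the correlation of 0.93 rests on this sample is not known, because it was not computed without it. Of the 12679 tested genes with a symbol, members left out, the 5 most like Itgb4 by the correlation of log2 values over the 8 arrays were Anxa7 (0.996), Niban1 (0.993), Asns, the asparagine synthetase (0.993), Frk (0.993) and Nfil3 (0.993). Anxa7, Niban1, Asns and Nfil3 had log2 fold changes of 3.69 ± 0.29, 4.80 ± 0.26, 5.49 ± 0.48 and 5.18 ± 0.60. Frk, not well above background in any Control sample, was at least 10.8-fold higher, against the lowest detected signal of each Control array. A large difference between groups alone gives high correlations of this kind.

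**Figure D2:**
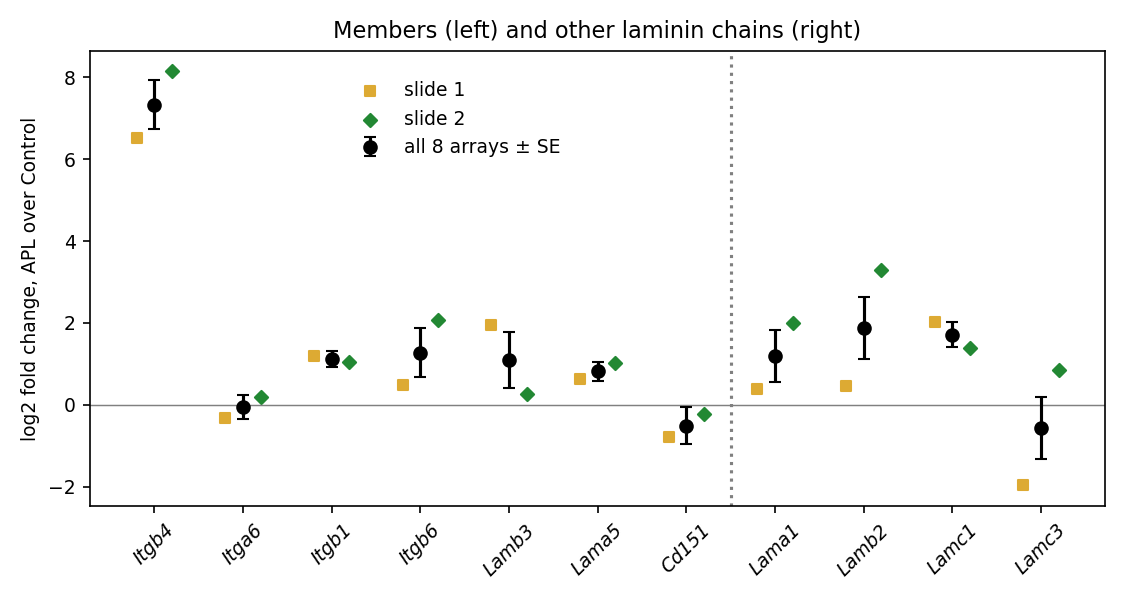
Log2 fold change of APL over Control for the 7 members (left of the dotted line) and 4 other laminin chains (right), as the estimate over all 8 arrays with its moderated SE (black) and within slide 1 (squares) and slide 2 (diamonds). Itgb4 lies above 5 on both slides, and the slides differ by more than 1 for Itgb4, Itgb6, Lamb3, Lama1, Lamb2 and Lamc3.

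Over all genes tested, 11.9% were called higher and 11.6% lower, and the counts of this and the following lists stand beside these shares. No list was tested against them. Of 4 other laminin chains tested, 1 rose and 3 were not called, with a median of 1.45. Lamc1, the γ1 chain of laminin-511 and laminin-521, rose by 1.72 ± 0.30 (limma adjusted p = 0.00546). Its relative signal was 0.357 to 0.809 in Control and 1.31 to 2.30 with APL. Another Lamc1 probe gave 1.14, with Control replicate 4 at 3.09 above every other sample, and the call was lost when the probes were averaged (limma adjusted p = 0.0534). The values of Lamb2, the β2 chain of the glomerular basement membrane, Lama1 and Lamc3 were 1.87 ± 0.76 (limma adjusted p = 0.115), 1.19 ± 0.63 (0.209) and -0.56 ± 0.75 (0.616), none of them past the threshold. That of Lamc3 was 0.07 without scaling between arrays and 0.52 with normexp and the 75th percentile. Lamb2 ran from 0.0248 to 0.322 in Control and from 0.232 to 0.479 with APL, and was called without Control replicate 2 (2.46, limma adjusted p = 0.0432).

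Of 11 other integrin subunits tested, 2 rose and 9 were not called, beside 11.9% of all genes called higher, with a median of 0.47. Itga5, the fibronectin receptor subunit that pairs with β1, rose by 4.22 ± 0.46 (limma adjusted p = 0.000536). Its relative signal was 0.00951 to 0.0302 in Control, where 2 samples were well above background, and 0.190 to 0.450 with APL, and normexp lowered the log2 fold change to 1.42 or 1.05, by scaling. Itga1, a collagen receptor subunit that also pairs with β1, rose by 1.73 ± 0.28 (limma adjusted p = 0.00398), from 0.794 to 1.59 in Control to 2.80 to 4.47 with APL. Itgb5, a β partner of αv, had a log2 fold change of 0.08 ± 0.27. Its other probe, well above background in all samples, gave 0.66, with groups that overlapped. The value was 0.37 with probes averaged (limma adjusted p = 0.226) and 0.72 without scaling between arrays (limma adjusted p = 0.0509). The αv subunit itself, Itgav, was not matched to a probe.

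A list of hemidesmosome plaque and anchoring genes also held the tetraspanins Cd9 and Cd81, which associate with β1 integrins and are not plaque genes. Of its 6 tested genes, 3 rose, Plec, Cd9 and Cd81, and 3 were not called, with a median of 0.85. Cd9 and Cd81, which are counted again among the tetraspanins, rose by 5.31 ± 0.83 (limma adjusted p = 0.00323) and 1.60 ± 0.21 (limma adjusted p = 0.00127). Cd9 ran from 0.00527 to 0.0950 in Control, with 2 samples well above background, and from 0.526 to 0.899 with APL, and normexp gave 1.95 or 1.64, by scaling. Plec, which encodes plectin, the linker of β4 to keratin, rose by 1.54 ± 0.44 (limma adjusted p = 0.0382), with 2.31 and 0.78 on the slides. Its call was lost without any 1 array other than Control replicate 3 and with normexp and the 75th percentile (limma adjusted p = 0.144). Krt14 and Krt15, keratins of stratified epithelia, had log2 fold changes of -0.76 ± 0.25 and -0.54 ± 0.22, and Col7a1, the anchoring fibril collagen, 0.16 ± 0.30. All APL samples lay below all Control samples for Krt14. Both keratins were called lower with quantile normalization of the processed signal, and were above 0 with normexp and the 75th percentile (0.09 and 0.21). Krt5 and Krt17 had probes but were not well above background on enough arrays, and Col17a1 and Dst were not matched to a probe.

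Of 20 tetraspanins and non-integrin laminin receptors tested, 8 rose, among them Cd9 and Cd81, 2 fell and 10 were not called, with a median of 1.36. Tspan8 rose by 4.42 ± 0.41 (limma adjusted p = 0.000284), from 0.196 to 0.571 in Control to 4.45 to 9.98 with APL. Bcam, a receptor for the laminin α5 chain made by Lama5, rose by 4.11 ± 0.68 (limma adjusted p = 0.00415), and lost its call with normexp and the 75th percentile (1.44, limma adjusted p = 0.0724). It was well above background in 1 Control sample. Dag1, which encodes dystroglycan, another laminin receptor, rose by 1.12 ± 0.20 (limma adjusted p = 0.00589). Its call was also lost with normexp and the 75th percentile (0.87, limma adjusted p = 0.135). The lower genes were Sdc2, a heparan sulfate proteoglycan, which fell by 2.52 ± 0.40, and Tspan5, which fell by 1.52 ± 0.30 and was no longer called when arrays were not scaled (-0.89, limma adjusted p = 0.0721).

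Collagen IV and other basement membrane genes changed in both directions, with 3 higher, 3 lower and 3 not called of 9 tested. Col15a1, a collagen of the outer basement membrane zone, rose by 5.25 ± 0.79, Col4a1 by 2.81 ± 0.29 and Col18a1 by 1.72 ± 0.26 (limma adjusted p = 0.00270, 0.000475 and 0.00297). Tinag, a tubular basement membrane antigen, fell by 2.20 ± 0.25 (limma adjusted p = 0.000650). Col4a4, a chain of the mature glomerular and distal tubular membrane, fell by 3.57 ± 0.95 (limma adjusted p = 0.0310), and was past the threshold in the fits without replicate 4 of either group but in none of the other 6 that each left out an array, and not under either normexp scaling (-0.50 and -1.02).

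**Figure D3:**
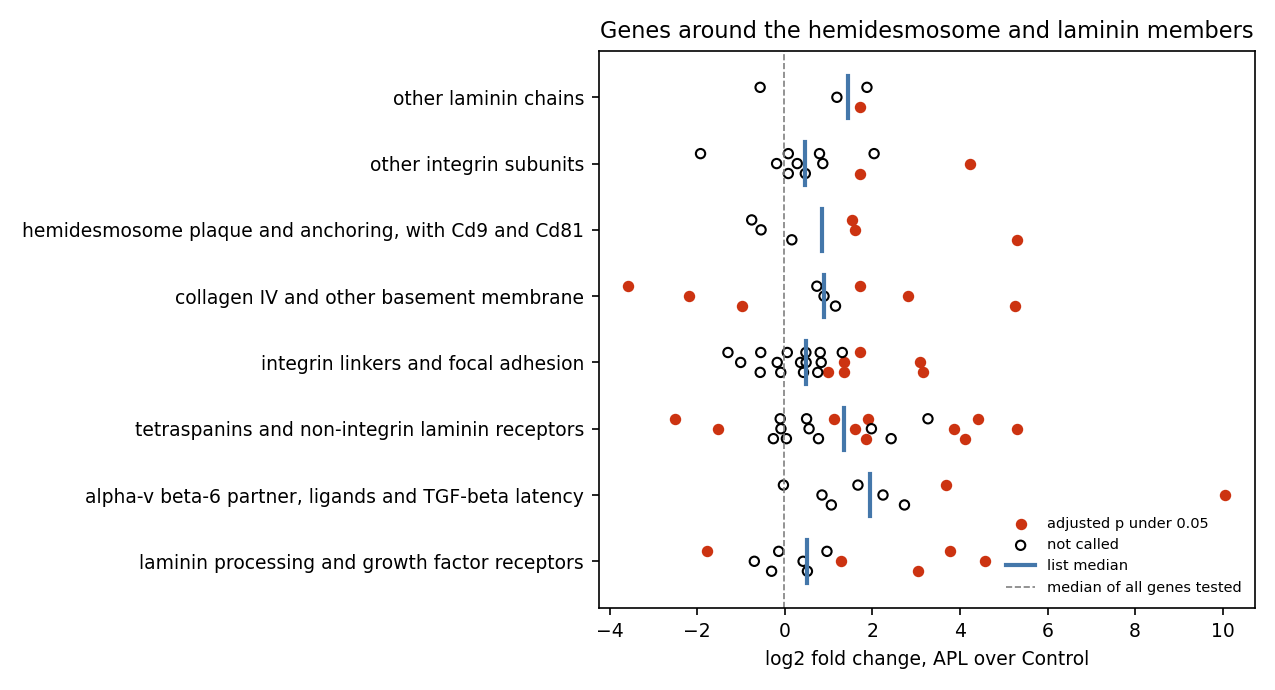
Log2 fold change of APL over Control for each tested gene of 8 lists around the members, filled where the adjusted p is under 0.05, with the median of each list (blue) and of all genes tested (dashed, -0.03). Cd9 and Cd81 are drawn in both lists that hold them, and called basement membrane genes lie on both sides of 0.

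Of 21 integrin linker and focal adhesion genes tested, 6 rose and 15 were not called, with a median of 0.49. Those with the largest increases were Tns4, a tensin (3.15 ± 0.86, limma adjusted p = 0.0329), Lims1, an adaptor of the integrin-linked kinase (3.08 ± 0.75, 0.0222), and Fermt1, the epithelial kindlin that activates β integrins (1.72 ± 0.23, 0.00142). Talin and vinculin, which carry the load between integrin and actin, had log2 fold changes of 0.48 ± 0.34 (Tln1) and 0.49 ± 0.48 (Vcl), neither past the threshold. The count of calls was 12 without scaling between arrays, 3 with normexp and the 75th percentile, 3 without APL replicate 1, and 2 without APL replicate 2 or 4. Tns4 lost its call without any 1 array other than Control replicate 4 or APL replicate 4, and Lims1 without Control replicate 2 or 4 or APL replicate 2, 3 or 4.

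Of the αv partner, ligands and TGF-beta latency genes around β6, 2 of 8 rose and 6 were not called, with a median of 1.95. The share of all genes called higher was 11.9%. Spp1, which encodes the integrin ligand osteopontin, rose by 10.05 ± 1.01 (limma adjusted p = 0.000390), and Tgfb3 by 3.68 ± 0.89 (limma adjusted p = 0.0219). Spp1 was at the floor and not well above background in Control replicate 3, and its log2 fold change was 8.95 without that sample. Tgfb3 lost its call without Control replicate 2 or APL replicate 2 or 4, and normexp gave 1.62 or 1.40, by scaling. The log2 fold changes of Tgfb1, whose latent form αvβ6 activates, and Fn1, a ligand of αvβ6, were 1.67 ± 1.03 and 2.24 ± 0.82, neither past the threshold. Tgfb1 was well above background in 3 Control samples. Its value was 0.55 without Control replicate 2 and 0.42 with normexp and quantile normalization. The other Fn1 probe, well above background in all samples, gave 3.57, from 0.197 to 0.353 in Control to 1.23 to 5.51 with APL, and Fn1 was called when its probes were averaged (2.91, limma adjusted p = 0.00696), without scaling between arrays (2.88) and without Control replicate 4 (2.96). Of 11 genes for laminin processing and growth factor receptors tested, 4 rose, 1 fell and 6 were not called, with a median of 0.52. Those that rose included Mmp14 (4.56 ± 0.83) and Mmp2 (3.76 ± 0.68), matrix metalloproteinases, and Bmp1 (3.05 ± 0.44), which processes laminin-332 (limma adjusted p = 0.00669, 0.00637 and 0.00226). Erbb3, a receptor of the EGF receptor family, fell by 1.79 ± 0.41 (limma adjusted p = 0.0173), and lost its call without APL replicate 4 (limma adjusted p = 0.0506). The count of calls was 3 without APL replicate 4.

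Markers of other cell types moved with the groups, and their part in the members' values was not tested. The renal pelvis is lined by urothelium, an epithelium that has hemidesmosomes. Of 6 urothelial markers with a probe, Upk2 was well above background on no array and Krt5 on fewer than 4, the 4 tested were not called, and the summed relative signal of the 6 was 0.294 to 0.379 in Control and 0.251 to 0.329 with APL. The largest differences among them were those of Upk1b (-0.57 ± 0.24) and Krt20 (-0.51 ± 0.27), both above 0 without scaling between arrays (0.06 and 0.13). Injured tubule markers rose for 4 of 7, with Lcn2 at 7.58 ± 0.32 and Spp1 as above, and their sum went from 2.08 to 4.11 in Control to 103 to 152 with APL. Of 6 principal cell markers of the collecting duct, 2 rose, among them Aqp4 (4.15 ± 0.87, but 0.52 on the probe detected in all samples, and not called there, with either normexp scaling or with probes averaged), Scnn1g was at 2.78 ± 0.95 (limma adjusted p = 0.0689), and their sum was 1.97 to 6.24 in Control and 5.57 to 19.0 with APL, so that the ranges overlapped.

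Proximal tubule markers fell for 6 of 8, among them Pck1 (-6.54 ± 0.37) and Slc22a6 (-6.51 ± 0.37). The 1 that rose was Slc5a2 (3.04 ± 0.66, limma adjusted p = 0.0140), and Cubn (-0.53 ± 0.22) was not called. The sum of the 8 markers was 396 to 465 in Control and 39.1 to 47.5 with APL. Thick ascending limb markers fell for 3 of 5, among them Egf (-6.29 ± 0.69) and Umod (-3.85 ± 1.06), whose call held without APL replicate 2 or 4 but not without any other array, and their sum was 42.6 to 60.9 in Control and 1.77 to 19.0 with APL. Endothelial markers fell for 6 of 8, among them Plvap (-4.40 ± 0.36) and Emcn (-4.18 ± 1.01, detected in 1 APL sample and -0.42 with normexp and the 75th percentile), which was also not called without Control replicate 1 or 2 or APL replicate 1, 3 or 4, and their sum was 11.4 to 13.1 in Control and 0.617 to 1.47 with APL. Fibroblast markers rose for 2 of 6, Col1a1 (2.12 ± 0.38) and Col3a1 (2.01 ± 0.44), and fell for 1, Pdgfra (-1.25 ± 0.31). Dcn (-0.21 ± 0.59), Pdgfrb (0.22 ± 0.68) and Acta2 (1.17 ± 0.51) were not called. The sums were 13.8 to 16.9 in Control and 29.6 to 90.2 with APL. With APL, Col3a1 alone was at 16.5 to 57.5 and Col1a1 at 10.8 to 27.4, so these sums mostly reflect the 2 collagens. Macrophage markers rose for 2 of 5, Cd68 (2.62 ± 0.36) and C1qb (2.35 ± 0.38), with sums of 2.42 to 9.43 and 9.16 to 14.5. Podocyte markers rose for 2 of 6, among them Ptpro (2.94 ± 0.52), and fell for 1, Podxl (-1.99 ± 0.33), with sums of 2.01 to 3.17 and 1.23 to 2.25. The 2 distal convoluted tubule markers tested, Calb1 (-1.62 ± 1.44) and Slc12a3 (-0.25 ± 0.64), and the 5 of intercalated cells, among them Foxi1 (2.12 ± 0.92) and Slc26a4 (0.59 ± 1.05), were not called.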

How the data were processed

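Scanner files of the 8 arrays, read with Agilent Feature Extraction 10.5.1.1 per the file headers, held linear intensity values, flags and a processed signal from which the software had already removed background. RNA was labelled with Cy3 and extracted with a Qiagen column kit, per the labels' protocols. The authors' deposited table of the series holds log2 values. In 94.0% of cases these values lay within 0.01 of log2 of the processed signal minus the 75th percentile of the array, centred per probe on the median of the 8 arrays, with correlations of 0.9993 to 0.9999 per array, so its scale, centring and direction are known from this comparison and the source of the other differences is not. By replicate number, the column medians of the Control samples are 0.0338, 0.0662, 0.0771 and 0.00597, and those of the APL samples -0.0724, 0.0186, -0.136 and -0.0445. The table was used as an alternative.

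Spots flagged as non-uniform, 2 to 64 per array, were dropped, and the other spots of a probe averaged. Each array's processed signal was scaled by its 75th percentile, floored at 0.005 of it and turned to log2. No member's value was missing or at the floor. A probe was well above background on an array when at least 0.5 of its spots were flagged so. Probes well above background on at least 4 of 8 arrays and with no missing value were kept, 24339 of 30367 passing the first condition. Every one of the 7 members with a probe passed, and no probe was saturated. Symbols came from a RefSeq table of the assembly GRCr8 by accession without version, which named 18643 probes and left 11724 unnamed. The array header names another build, so only the promoter windows carry coordinates. A gene was represented by its probe with the highest mean.

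The main test was that of limma (version 3.58.1, under R 4.3.3), with lmFit and eBayes, two-sided, and Benjamini-Hochberg adjustment over the 21358 genes tested. Precision is limited by how many arrays there are. The members and lists were chosen with earlier results of these data known. Named are all members, the other laminin chains given, the 3 largest called increases and 2 largest called decreases of each pathway list, the 5 genes most like Itgb4 and the 2 markers of each cell type with the largest absolute change. Genes outside this rule that are given, such as Dag1, Itgb5, Krt14, Krt15, Col7a1, Tln1, Vcl, Tgfb1 and Fn1, were chosen for their role after their values were seen. The markers Pdgfra, Dcn, Pdgfrb, Acta2, Slc5a2 and Cubn were also added after their values were seen, to show markers unlike the 2 named by the rule. Genes outside the rule are not in the counts of named genes below. One gene is not reported here. The slides were balanced over the groups. Same-numbered samples correlated at 0.011, 0.011, 0.048 and -0.016 in their deviations from the group means, beside 0.091 for Control replicate 1 with APL replicate 4. These few values show no clear pairing by number and cannot exclude one. The main test took the samples as unpaired.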

Additional observations from a re-analysis of the deposited data

Results flagged for a closer look

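Among 60 named genes in both groups of 4, 120 sets of values in all, 6 had a sample whose gap to the nearest other took more of the group's range than Dixon's critical value for 4 samples, where chance flags about 1 in 20. The only member was Itgb4, whose log2 value in Control replicate 1 was -2.59, against -4.96 to -4.57 in the other Control samples. Frk met the measure in the same sample at -6.38 only because the other Control values were set to 1 floor, -7.64, and as it was not well above background in any Control sample, the chance rate does not apply and no sample is shown to stand apart. APL replicate 3 stood out for Anxa7 at 2.93 against 2.38 to 2.44, for Slc22a6 at 0.21 against -1.16 to -1.07, and for Slc12a3 at 3.01 against 0.32 to 0.66. APL replicate 4 stood out for Tns4 at -5.38 against -2.38 to -2.02. No cause was tested for any of these.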

How the results depend on the processing

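Of 5015 genes called, 3369 to 4175 were called with 1 array left out, 2008 when normexp preceded percentile scaling, and 3252 with the replicate number as a block. The block fits a pairing by number that the correlations did not clearly show, and Control replicate 1 correlated best with APL replicate 4. Of the 7 members, 3 were called, 2 to 3 with 1 array left out and 1 when normexp was followed by percentile scaling. Calls among the 4 other laminin chains went from 1 to 2 without scaling, to 0 by limma where kept probes were averaged (2 at an unadjusted p under 0.05) and to 1 to 2 with 1 array left out. Those among the other integrins went from 2 to 1 where probes had to be well above background on all 8 arrays. Itga5, well above background in only 2 Control samples, left the test there. Under that filter 0 of 4 αvβ6 genes were called by limma, with 1 at an unadjusted p under 0.05, because the called genes left the test. Calls in the plaque list, which includes Cd9 and Cd81, went from 3 to 5 with quantile normalization of the processed signal. The added calls were lower with APL, Krt14 (-1.04, limma adjusted p = 0.0244) and Krt15 (-0.84, limma adjusted p = 0.0313). The linkers had 6 calls, 12 without scaling, 3 with normexp and percentile scaling, 3 with the replicate block and 2 to 5 with 1 array left out. The αvβ6 genes had 1 to 3 calls with 1 array left out, and the laminin processing genes 3 to 5, and 3 with the replicate block. The cause was not tested for the other changes. No called named gene changed sign. Of 41 called named genes, 12 lost their call under at least 1 alternative that used all arrays and 9 with 1 array left out. Dim Control spots limit the fold of Itgb4, although its probe was well above background in every Control sample. They also limit the folds of, among others, Itga5, Cd9, Bcam, Spp1, Tns4, Tgfb1, Tgfb3, Mmp14 and Aqp4, which were not well above background in every Control sample. Dim APL spots limit those of Col4a4 and Emcn.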
